A study of Mus musculus with 6 samples.

Results

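This report describes 37 genes that work in and around the endoplasmic reticulum (ER), where collagens and other secreted proteins are folded, modified and sent on their way. They were chosen by function and looked up by Ensembl identifier. All 37 were among the 52636 genes of the table, and all received an adjusted p-value, as did 17070 genes in all. RNA of whole thoracic aorta was sequenced from 6 mice at 12 weeks of age. The 4 WT mice were untreated C57BL/6J. The 2 KO mice, Tgfbr1/2iSMCKO, carried loxP-flanked alleles of both TGF-β receptor genes (Tgfbr1f/f.Tgfbr2f/f), the mT/mG reporter and a tamoxifen-dependent Cre recombinase driven by the promoter of the smooth muscle gene Myh11 (Myh11-CreERT2). Tamoxifen was given to them at 2 mg/d by intraperitoneal injection, on 5 days, starting when they were 11 weeks old.

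Several features limit these groups as a model. The Cre acts in smooth muscle cells (SMCs), whereas the RNA came from the whole wall with its fibroblasts, endothelium and attached tissue. The transgene sits on the Y chromosome, so only males were studied. No WT mouse received tamoxifen or carried Cre, reporter or loxP sites, so receptor loss, tamoxifen and these alleles cannot be told apart. Bulk RNA also does not separate fewer cells of a type from less RNA per cell. Nothing in the labels describes dissection dates or sequencing batches, and the p-values measure only the spread between these 6 samples.

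Proteins bound for secretion enter the ER through the Sec61 channel, fold with the help of chaperones and disulfide isomerases, and leave in COPII-coated vesicles. Procollagen needs more: its prolines are hydroxylated and its triple helix is held by dedicated chaperones until export. When unfolded protein builds up, the sensors Ire1, Perk and Atf6 start the unfolded protein response (UPR), which raises transcripts for chaperones and for ER-associated degradation. Gene counts measure neither the splicing of Xbp1, the cleavage of Atf6 protein nor the translation of Atf4, which are the steps that switch these factors on.

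Total estimated counts ran from 19650983 to 28860598 per library. Counts over the whole of Tgfbr1 (log2 fold change 0.20, SE 0.20) and Tgfbr2 (-0.09, SE 0.18) gave adjusted p-values of 0.63 and 0.838 in DESeq2, and a gene-level count cannot show the loss of single exons, so these genes do not check the labels. Groups are therefore named here by their labels. Mitochondrial transcripts held 11.7% of the counts of the library labelled KO-2 and 2.62% to 4.44% of the others. Transcripts of some other tissues were also more abundant in 1 or both of the libraries labelled KO. Summed normalised counts (counts divided by DESeq2 size factors) of 5 red blood cell genes were 859 to 5990 in WT, 11076 in KO-1 and 61684 in KO-2. Those of 7 white adipocyte genes were 2413 to 4229 in WT, 3997 in KO-1 and 34134 in KO-2, and those of 8 cardiac muscle genes were 3095 to 4441, 29061 and 4185. The 9 smooth muscle markers, which define the tissue, were abundant in every library (873688 or more in sum) and none passed the test. Their part, and that of mitochondrial transcripts, in the results below was not tested.

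Most of the 37 genes showed no change that passed the test. In DESeq2, 3 of 37 (8.11%) had an adjusted p-value under 0.05, against 10.4% of all genes tested (5.71% higher and 4.69% lower). P4ha3, a catalytic subunit of collagen prolyl 4-hydroxylase, rose. Fkbp10, a collagen chaperone, and Herpud1, an adaptor of ER-associated degradation, fell. Scaled to total counts without mitochondrial genes, which raised the median log2 fold change of all genes to 0.12, the split was 5 higher and 2 lower, and 70.2% of all genes that passed were higher in place of 54.9%. Only P4ha3 also exceeded a 2-fold change, so 1 of 37 was called by the study's threshold, against 5.64% of all genes (3.54% higher and 2.1% lower). The median log2 fold change of the 37 was 0.07, and that of all genes tested 0.01. At an unadjusted p under 0.05 there were 14 members (37.8%), 6 higher and 8 lower, against 22.2% of all genes (11.9% higher and 10.3% lower).

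Fitted intervals were narrow for most of them, but they describe the average of the 2 libraries labelled KO and not each library. For 32 of 37 genes (86.5%) the whole 95% Wald interval lay inside a 2-fold change in either direction, against 52.7% of all genes tested and 76.7% of the 11349 genes at least as abundant as the least abundant member other than P4ha3. The 5 others were P4ha3, Herpud1, Sdf2l1, Dnajb9 and Sel1l. The 32 included P4ha1 and Creld2, whose libraries labelled KO lay on opposite sides of WT. Such intervals do not bound the single libraries. Among WT libraries the genes had a median coefficient of variation of 7.94% (3.70% to 50.4%), against 16.1% over all genes tested. This comparison was not matched for abundance, so it does not set them apart from other genes as abundant. The groups did not overlap in 15 genes (40.5%, background 34.3%). Among these, both KO libraries were above WT in 6 (background 17.9%) and below it in 9 (background 16.4%).

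**Figure D1:**
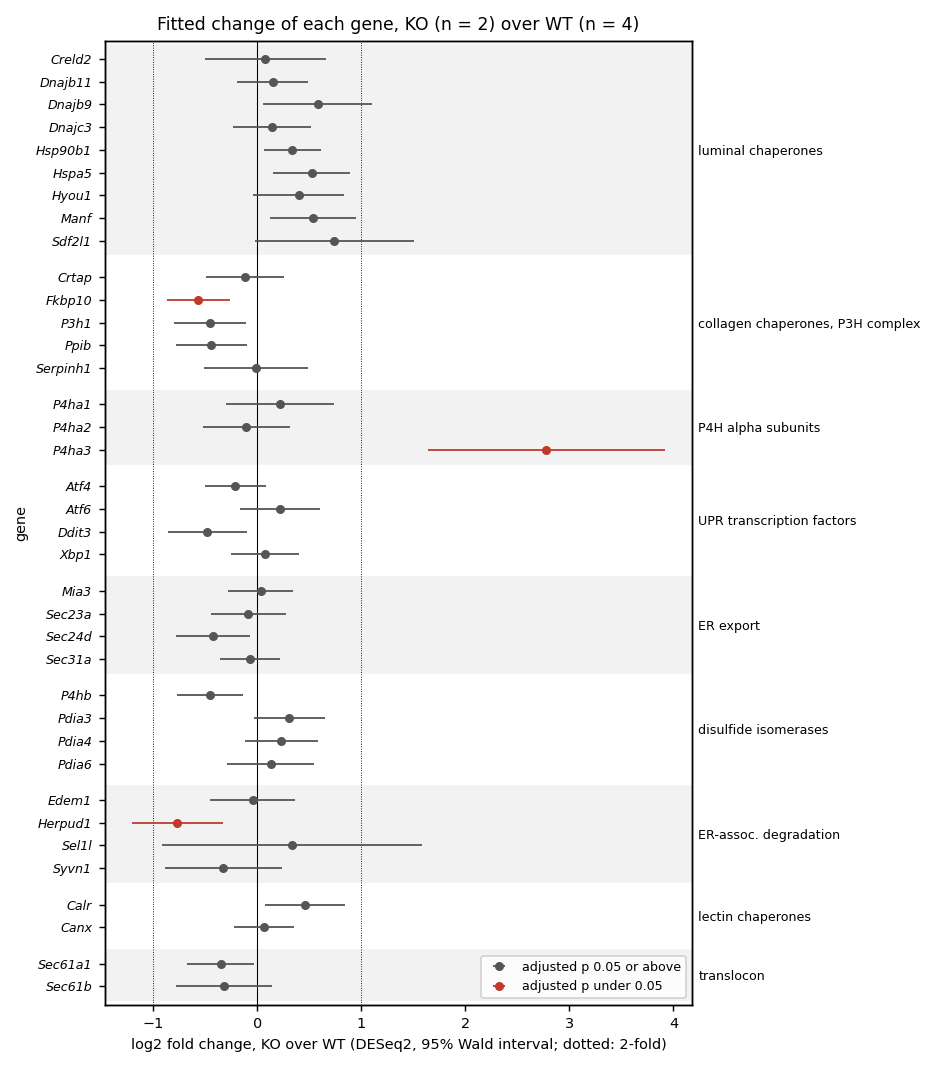
Fitted log2 fold change of each of the 37 genes, KO (n = 2) over WT (n = 4), with 95% Wald intervals from DESeq2 and dotted lines at a 2-fold change. The genes are grouped by role; the 3 red genes (P4ha3 at 2.78, Fkbp10 at -0.56 and Herpud1 at -0.77) passed an adjusted p of 0.05, and the 9 luminal chaperones lie right of 0 without passing.

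The luminal chaperones fold and hold proteins inside the ER. All 9 had fitted values above 0, with a median of 0.40 and a range from 0.08 (Creld2) to 0.74 (Sdf2l1), and these signs were kept under the 3 other scalings, although Dnajc3 stood at -0.03 with a GC trend taken out. The common sign rested in part on KO-1: without it Creld2 stood at -0.64, Dnajc3 at -0.07 and Sdf2l1 at -0.0034, and with the replicate number as a block Creld2 stood at -0.06. None of the 9 passed the test. Hspa5 encodes BiP, the Hsp70 of the ER and the usual sentinel of the UPR. It read 3327, 3834, 4192 and 4754 normalised counts in the WT libraries (in the order of their numbers, as below), 6128 in KO-1 and 5437 in KO-2. Both libraries labelled KO were above all WT libraries. The log2 fold change was 0.52 (SE 0.19, 95% interval 0.15 to 0.89) and the DESeq2 adjusted p 0.0538, just short of the threshold. With single WT libraries left out it ran from 0.0123 to 0.165, passing only without WT-4, the WT library with the highest level. It was 0.1 in edgeR's quasi-likelihood test. Hspa5 passed in 4 of 16 alternatives. The others were total counts without mitochondrial genes (0.0136), a mean of at least 10 counts (0.0414) and exon length taken out (0.0446).

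Hsp90b1, the ER form of Hsp90 (Grp94), had normalised counts of 13077, 12633, 12773 and 11971 in WT and 15846 and 16041 in KO. It was the steadiest of the 37 genes within WT, and both libraries labelled KO were higher by a similar amount (log2 fold change 0.34, SE 0.14, DESeq2 adjusted p 0.11). With a trend on GC content taken out the change was 0.16 (adjusted p 0.588). Hsp90b1 passed in 1 of 16 alternatives, total counts without mitochondrial genes (0.44, adjusted p 0.019). Its exons share 415 of 4032 bases with the pseudogene 1810014B01Rik on the opposite strand, which had a mean of 62.6 normalised counts in WT. Manf, a secreted and ER-resident stress protein, read 1002, 1234, 1079 and 1327 in WT and 1947 and 1418 in KO, again without overlap (0.54, SE 0.21, adjusted p 0.081). The remaining luminal genes did not behave alike in both libraries labelled KO. Sdf2l1, a partner of the ER Hsp40 proteins, had 93.4, 124, 84.9 and 117 normalised counts in WT, 244 in KO-1 and 104 in KO-2. Hyou1, a large Hsp70-related exchange factor for BiP, had 1039 to 1230.0 in WT, 1877 in KO-1 and 1169 in KO-2. Creld2, an ER disulfide isomerase-like protein, had 574 to 679 in WT, 911 in KO-1 and 399 in KO-2. In these 3 genes KO-1 was above every WT library, whereas KO-2 was inside the WT range or below it. Among the Hsp40 co-chaperones, Dnajb9 (0.58, adjusted p 0.165), Dnajb11 (0.15, adjusted p 0.69) and Dnajc3 (0.14, adjusted p 0.731) each overlapped between groups.

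The lectin chaperones bind sugars on newly made glycoproteins. Calr, which encodes calreticulin, read 16359.8, 16476, 17301 and 14851 in WT, 17884.5 in KO-1 and 26890.4 in KO-2. Both libraries labelled KO were above WT, KO-1 barely and KO-2 clearly, and the test was not passed (log2 fold change 0.46, SE 0.20, DESeq2 adjusted p 0.118). The change was 0.73 without KO-1 and 0.15 without KO-2. Any fit that leaves out 1 of the libraries labelled KO has no spread within KO and assumes that the lone library varies like WT, so its p-value, here and below, describes that library against WT. Canx, its membrane-bound relative, was almost level between groups (0.07, 95% interval -0.22 to 0.35).

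Promoters of several of these genes hold the ER stress response element (ERSE, CCAAT followed by 9 bases of any kind and CCACG), the motif read by Atf6 and Xbp1 together with NF-Y. Promoter windows (250 bases before to 50 after the start, RefSeq, GRCm38.p6, both strands searched) were matched for 32 of the 37 genes. An ERSE was found in 8 of them, Hspa5, Hsp90b1, Calr, Canx, Creld2, Dnajc3, Pdia6 and Syvn1, and in 39 of all 32851 promoters (0.119%). The motif was first described in genes of this kind, so this share is no independent observation. The variant ERSE-II (ATTGG and CCACG with 1 base between them) was in 0.0365% of promoters, among them those of Dnajb11 and Herpud1, the UPR element TGACGTGG in 0.676%, among them those of Sec23a and Sec24d, and the Atf4-type element TTGCATCA in 0.895%, among them that of Herpud1. No matches of different motifs overlapped. The windows below were picked to set genes with fitted values above 0 side by side with Herpud1, which fell. Members not shown also go the other way. Syvn1 holds an ERSE and stood at -0.32, and Dnajb11 holds an ERSE-II and stood at 0.15. Capitals mark the motif, which reads in the opposite sense in Calr. Hspa5 lies at chr2:34772015-34772053 (+ strand), Calr at chr8:84847065-84847103 (- strand), Pdia6 at chr12:17266481-17266519 (+ strand) and Herpud1 at chr8:94386307-94386397 (+ strand), each upstream of the start of transcription.
Hspa5: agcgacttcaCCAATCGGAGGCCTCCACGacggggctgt
Calr: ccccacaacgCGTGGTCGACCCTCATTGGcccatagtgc
Pdia6: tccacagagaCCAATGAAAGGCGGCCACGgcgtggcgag
Herpud1: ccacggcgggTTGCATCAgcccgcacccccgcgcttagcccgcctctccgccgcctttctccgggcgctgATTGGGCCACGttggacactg
Of the 8 genes with an ERSE, 7 had a fitted value above 0 and 0 passed the test (median log2 fold change 0.14). Of the 24 matched genes without one, 10 were above 0 and 14 below, and 2 passed (median -0.06). Of 10 tested genes outside the 37 with an ERSE, 3 were above 0 and 7 below (median -0.43), and 3 passed. Over all 18 tested genes with an ERSE the split was 10 to 8. A letter match is a description of the window and not of binding.

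The disulfide isomerases pair cysteines correctly. Pdia3, which works with the lectin chaperones (0.31, DESeq2 adjusted p 0.291), Pdia4 (0.23, adjusted p 0.486) and Pdia6 (0.13, adjusted p 0.793) had fitted log2 values above 0 without passing. P4hb differs from them in that its product is also the beta subunit of prolyl 4-hydroxylase. It read 15547, 15383, 14184 and 14364 normalised counts in WT, 12108 in KO-1 and 9623 in KO-2. Both libraries labelled KO were below every WT library (log2 fold change -0.45, SE 0.16, 95% interval -0.77 to -0.13), with an adjusted p of 0.0526. The change was -0.63 without KO-1 and -0.29 without KO-2. P4hb passed in 3 of 16 alternatives, among them a mean of at least 10 counts (DESeq2 adjusted p 0.0272) and exon length taken out (0.048).

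Prolyl 4-hydroxylase makes the hydroxyprolines that keep the collagen helix stable at body temperature, and each enzyme contains 1 of 3 alternative catalytic alpha subunits. P4ha3 (chromosome 7, 100285520 to 100319699 on GRCm38) had 7.69, 15.3, 14.98 and 18.8 normalised counts in WT, 56.2 in KO-1 and 140.1 in KO-2. Both libraries labelled KO were above all WT libraries. The log2 fold change was 2.78 (SE 0.58, DESeq2 adjusted p 8.31e-05), a 6.87-fold rise. It passed in 14 of 16 alternative analyses, but not without KO-2, where the change was 1.99 with an adjusted p of 0.12, nor in the test against a 2-fold change. From WT to KO-1 to KO-2 the counts of P4ha3 rose, as did the sums of some marker lists but not of others. Sums over 7 mesothelial markers were 228 to 468 in WT, 926 in KO-1 and 2517 in KO-2 (6 of 7 passed upward). Those over 7 brown adipocyte markers were 1217 to 1582, 4092 and 14208 (5 of 7 passed upward). Sums of cardiac muscle (29061 and 4185) and fibroblast markers (111413 and 80116) were higher in KO-1 than in KO-2. Within WT, P4ha3 was lowest in WT-1, where the brown adipocyte sum was highest. The part of these tissues in the value of P4ha3 was not tested. The rise was from a very low base. Levels per length were taken as FPKM-like values, that is estimated counts scaled to the total of the library and to kilobases of exon. P4ha3 stood at 0.192 ± 0.0648 among WT libraries (SD, n = 4), and its KO level was 1.33 ± 0.73 (SD, n = 2). It was the lowest of the 37 genes in both groups. P4ha1 and P4ha2 stood at 21.7 ± 2.43 and 10.5 ± 0.740 in WT (SD, n = 4). On this scale P4ha3 made up 0.340% to 0.712% of the 3 subunits in WT, 1.63% in KO-1 and 7.34% in KO-2.

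The major subunits were not alike between the libraries labelled KO. P4ha1 had 1944, 2107, 1959 and 2395 normalised counts in WT, 3290.1 in KO-1 and 1589 in KO-2, so that KO-1 was above and KO-2 below all WT libraries. P4ha2 split in the same way, with 1428 to 1628 in WT, 1754 in KO-1 and 1112 in KO-2. Their fitted changes of 0.22 and -0.10 (DESeq2 adjusted p 0.706 and 0.842) therefore average opposite values.

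**Figure D2:**
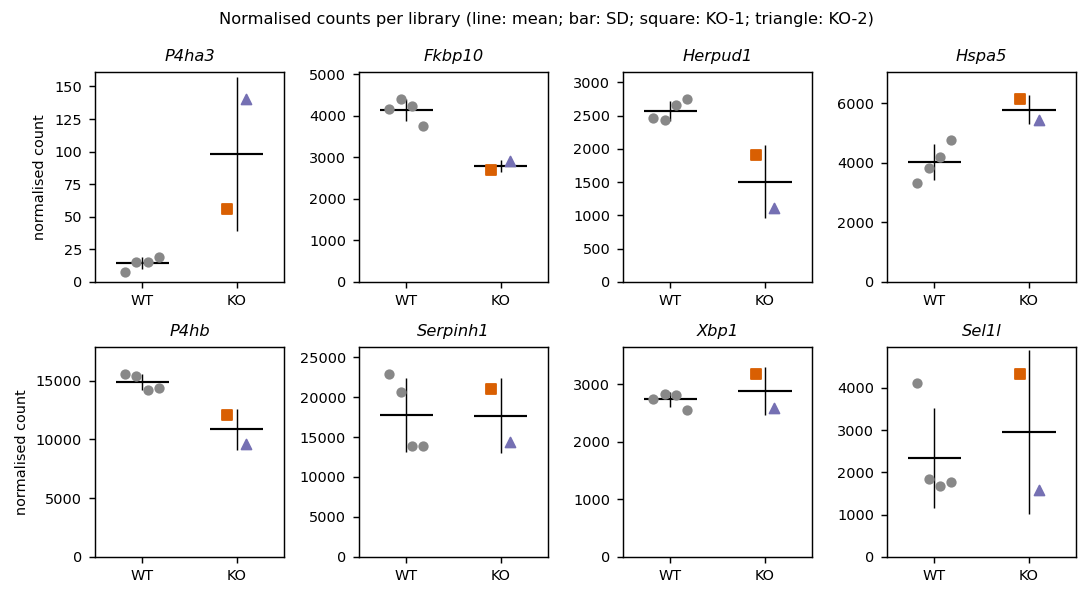
Normalised counts of 8 genes in each library, with WT (n = 4) on the left and KO (n = 2) on the right of each panel; horizontal lines are means, vertical bars SDs, squares KO-1 and triangles KO-2. P4ha3 (56.2 and 140.1) and Hspa5 (6128 and 5437) lie above all WT libraries, Fkbp10, Herpud1 and P4hb lie below them, and Serpinh1, Xbp1 and Sel1l overlap.

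Collagen chaperones and the prolyl 3-hydroxylation complex act on procollagen, and Fkbp10 and Ppib on other clients as well. The 5 genes of this group had fitted values below 0, with a median of -0.44, although Serpinh1 lay so near 0 that its sign turned to 0.04 and 0.09 when libraries were scaled to total counts with and without mitochondrial genes. Fkbp10 encodes FKBP65, a prolyl isomerase and chaperone of type I procollagen. Its normalised counts were 4168, 4396, 4234 and 3752 in WT, 2697 in KO-1 and 2901 in KO-2. The libraries labelled KO were close to each other and well below WT. It fell by 0.56 on the log2 scale (SE 0.16, DESeq2 adjusted p 0.00571), a WT level 1.48 times that of KO. The change was -0.51 without KO-1 and -0.61 without KO-2. With a trend on GC content taken out the change was -0.35 and the adjusted p 0.0968. Fkbp10 passed in 12 of 16 alternatives. It also failed in unfiltered edgeR (adjusted p 0.0539), in DESeq2 with the replicate block (0.24) and in the test against a 2-fold change. Exons of Fkbp10 share 193 of 2935 bases with Nt5c3b on the opposite strand, and it is not stated whether the counting used strand; Nt5c3b had a log2 fold change of -0.38 (adjusted p 0.177).

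P3h1, Crtap and Ppib form the complex that 3-hydroxylates a single proline of the collagen chain and helps it fold. P3h1 read 1372, 1497, 1384 and 1428 in WT and 1154 and 914 in KO. Ppib, the cyclophilin of the complex, read 6431, 6753, 5552 and 5539 in WT and 4844 and 4083 in KO. For both genes the libraries labelled KO were below WT without overlap, at log2 fold changes of -0.46 (SE 0.18) and -0.44 (SE 0.17) and DESeq2 adjusted p-values of 0.0807 and 0.0831. P3h1 passed in 3 of 16 alternatives, among them a mean of at least 10 counts (0.0419) and exon length taken out (0.0459). Ppib shares 825 of 3305 exon bases with Snx22 on the opposite strand, a gene with a mean of 49.6 normalised counts in WT. Crtap went opposite ways, with 2622 to 2953 in WT, 2149.6 in KO-1 and 3057 in KO-2. Serpinh1, which encodes the collagen chaperone Hsp47, had the highest level per length of all 37 genes in WT. It read 22875.5, 20641, 13859.7 and 13912 in WT, 20986 in KO-1 and 14347 in KO-2. WT itself fell into a higher and a lower pair, with KO-1 between the values of the higher pair and KO-2 just above the lower pair (log2 fold change -0.01, 95% interval -0.51 to 0.49). The summed fibroblast markers, which mark the other collagen-making cells of the wall, were 81169 to 96985 in WT, 111413 in KO-1 and 80116 in KO-2. Of these 8 markers 2 passed upward and 0 downward, and in 4 both libraries labelled KO were above all WT libraries. Their part in these values was not tested.

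Both translocon genes had fitted values below 0. Sec61a1, the channel itself, read 4672 to 5583 in WT and 4248 and 3653 in KO (-0.35, SE 0.16, DESeq2 adjusted p 0.173), and Sec61b, a small subunit, overlapped between groups (-0.32, adjusted p 0.459). Sec24d, the COPII coat subunit that selects cargo, read 4655, 5157, 5794 and 5717 in WT and 4435 and 3487 in KO. Its libraries labelled KO were below all WT libraries, the first by little (-0.43, SE 0.18, adjusted p 0.12). Sec24d passed in 3 of 16 alternatives, among them GC content taken out (DESeq2 adjusted p 0.019) and exon length taken out (0.0282). Sec23a, Sec31a and Mia3, of which Mia3 encodes the collagen export receptor TANGO1, lay between -0.08 and 0.03. The 95% intervals of these 3 genes ran no lower than -0.44 and no higher than 0.35 on the log2 scale.

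**Figure D3:**
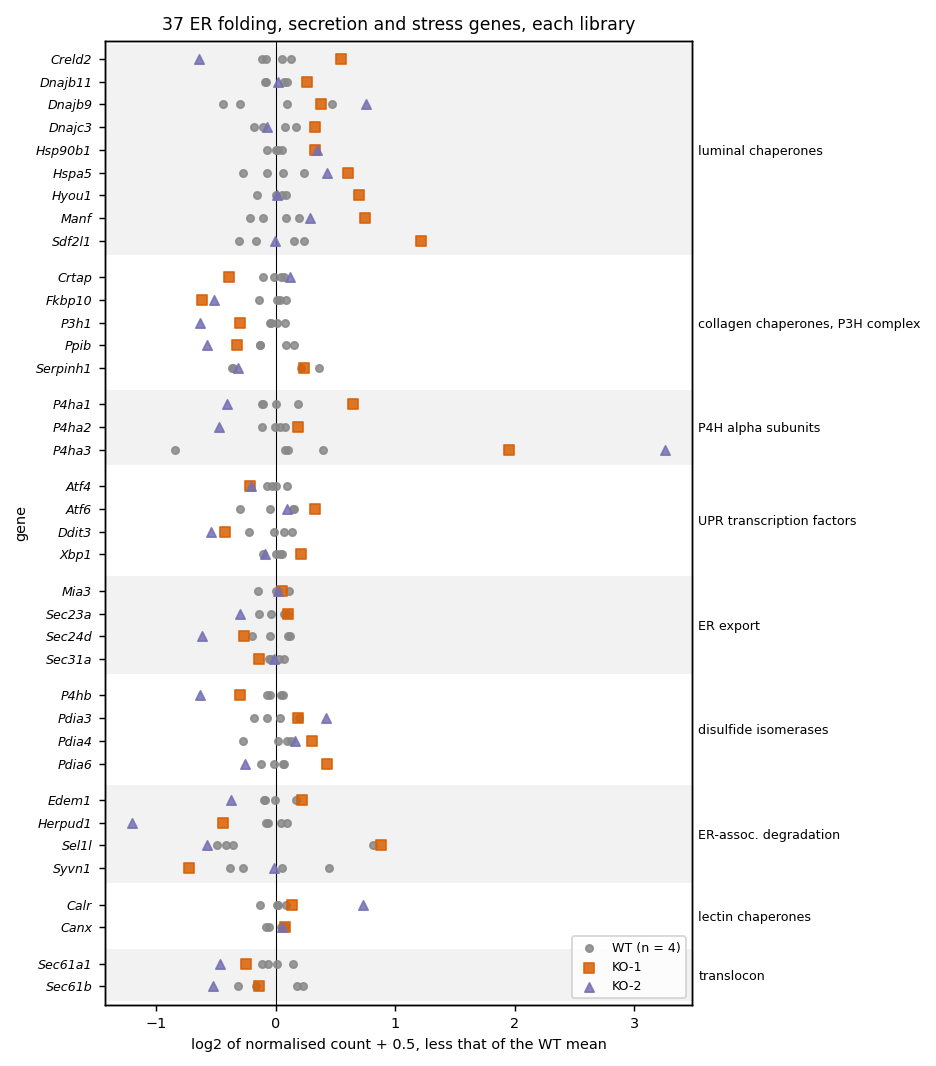
Value of each library for each of the 37 genes on the log2 scale, relative to the WT mean and grouped by role; grey points are the 4 WT libraries, squares KO-1 and triangles KO-2. In 7 genes, among them P4ha1 and Creld2, KO-1 lies right of all WT points and KO-2 left of them, while Fkbp10, Atf4 and Hsp90b1 have both close together.

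The 4 transcription factors of the UPR did not pass the test in either direction. Xbp1, whose spliced messenger is the product of Ire1, read 2750.4, 2841, 2816 and 2552 in WT, 3177 in KO-1 and 2584 in KO-2, and the groups overlapped (0.07, SE 0.17, DESeq2 adjusted p 0.861). Atf6 read 1549, 1846, 2125 and 2105 in WT and 2392 and 2033 in KO, with overlap (0.22, SE 0.20, adjusted p 0.575). Atf4, the factor of the Perk arm, read 3928, 3717, 4168 and 3835 in WT and 3374 and 3385 in KO. Both libraries labelled KO were below WT and nearly equal (-0.21, SE 0.15, adjusted p 0.434). Ddit3, which encodes the stress factor CHOP, read 817, 781, 737 and 639 in WT and 555 and 513 in KO. It too was below WT in both (-0.48, SE 0.19, adjusted p 0.102), with an adjusted p under 0.05 only when WT-4, the lowest WT library, was left out.

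Of the genes of ER-associated degradation, Herpud1 (chromosome 8, 94386438 to 94395377) was the one that passed. Herpud1 encodes a membrane protein that gathers the ubiquitin ligase complex and is a strong UPR target in many cells. Normalised counts were 2462, 2433, 2660.3 and 2746 in WT, 1901 in KO-1 and 1117 in KO-2. Both libraries labelled KO were below WT, KO-2 more so. Herpud1 fell by 0.77 on the log2 scale (SE 0.22, DESeq2 adjusted p 0.00959). The change was -0.43 without KO-2, with an adjusted p of 0.12, and -1.20 without KO-1. In edgeR's quasi-likelihood test the adjusted p was 0.0693, and 0.082 without a filter. Herpud1 passed in 11 of 16 alternatives. It also failed in DESeq2 with the replicate block (adjusted p 0.19) and in the test against a 2-fold change. Edem1, which helps direct misfolded glycoproteins to degradation (-0.04, adjusted p 0.934), and Syvn1, the ubiquitin ligase Hrd1 (-0.32, adjusted p 0.56), overlapped between groups. Sel1l, the partner of Syvn1, read 4115, 1832, 1669 and 1760.4 in WT, 4324 in KO-1 and 1576 in KO-2. A high value stood in 1 library of each group, and the interval of the change ran from -0.92 to 1.58.

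The libraries labelled KO lay on opposite sides of the WT mean in 12 of the 37 genes (32.4%), about as often as over all genes tested (32%). Counting only genes in which they lay outside the WT range on opposite sides gave 8 of 37 (21.6%), against 7.79% of all genes tested. This comparison was not matched for abundance. The median coefficient of variation among WT libraries was also lower in the 37 genes, as given above. In 7 of these (18.9%, 4.35% of all genes) KO-1 was above and KO-2 below: Pdia6, P4ha1, P4ha2, Sec23a, Creld2, Edem1 and Sel1l. Crtap was the reverse. KO-1 was above the WT range in 20 genes (54.1%, 31.3% of all genes) and KO-2 in 9 (24.3%, 32.8% of all genes). Below it lay KO-1 in 12 genes (32.4%, 27.7% of all genes) and KO-2 in 17 (45.9%, 32.3% of all genes). The median log2 value of the 37 genes against the WT mean was 0.19 in KO-1 and -0.08 in KO-2, and ran from -0.07 to 0.05 in the WT libraries. The 37 genes held 0.770% of the counts of KO-1 and 0.648% to 0.690% of those of the other libraries. In fits of a single library labelled KO the spread is that of WT, so effect sizes alone are given here. The genes listed were picked by the adjusted p of these same fits, so changes of similar size are left out. Sel1l, at -0.57 without KO-1 and 0.90 without KO-2, and Syvn1, at -0.71 without KO-2, were not picked. Without KO-1 the fitted changes were 0.73 for Calr and 3.30 for P4ha3. They were -0.64 for Creld2, -1.20 for Herpud1, -0.63 for P3h1, -0.63 for P4hb, -0.57 for Ppib and -0.61 for Sec24d. Without KO-2 they were 0.71 for Hyou1, 0.76 for Manf, 0.66 for P4ha1 and 1.23 for Sdf2l1. Fkbp10 stood at -0.51 without KO-1 and -0.61 without KO-2. Plasma cells are rich in many of these transcripts. The sum of 8 plasma cell markers was 1242 to 1762 in WT, 1923 in KO-1 and 4325 in KO-2, and 2 of the 7 tested passed upward. The 9 macrophage markers summed to 6421 to 7616 in WT, 12416 in KO-1 and 14090 in KO-2, and all 9 passed upward. The 8 endothelial markers summed to 12729.5 to 22887 in WT, 32431 in KO-1 and 31378 in KO-2, and 4 passed upward. The part of these cell types was not tested.

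Levels per length were compared within WT to show how the aorta is equipped. The FPKM-like values ran from 0.192 for P4ha3 to 309 for Serpinh1. After Serpinh1 (309 ± 80.1, SD, n = 4) came Calr (239 ± 13.4), P4hb (220.3 ± 11.3), Pdia3 (160.4 ± 17.3) and Hsp90b1 (133 ± 3.84). Serpinh1 and Calr differed by less than the SD of Serpinh1, and the WT libraries of Calr and P4hb overlapped. Canx (78.4 ± 4.15) and Ppib (77.8 ± 8.44) were also within their spread of each other. Collagen-handling genes and general chaperones thus shared the top of the order, and Hspa5 (40.4 ± 6.32) was 13th. Among the transcription factors Atf4 was highest (70.3 ± 2.50) and Atf6 lowest (8.76 ± 1.27).

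**Figure D4:**
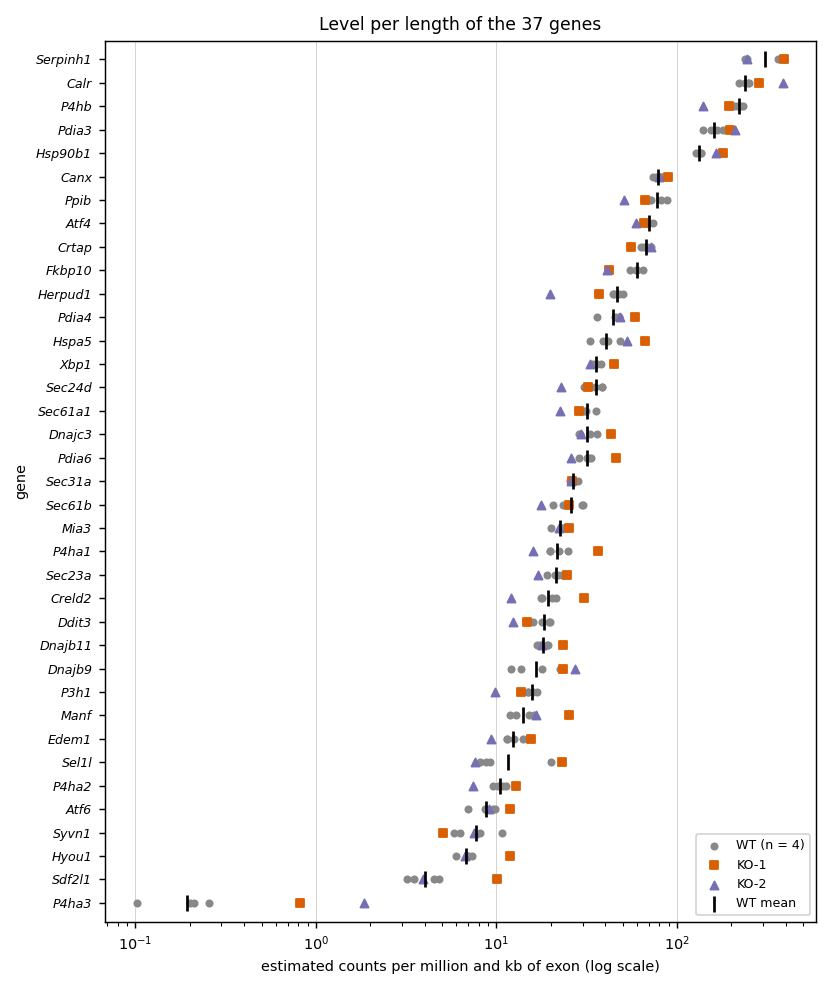
Level per length of the 37 genes in each library, as FPKM-like values on a log axis, ordered by the WT mean (vertical tick). Serpinh1 is highest in WT at 309 and P4ha3 lowest at 0.192, and the libraries labelled KO leave P4ha3 in last place at 1.33 on average.

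The same pathways hold other genes, of which 165 were listed in 6 groups; 163 were tested and 16 passed (9.82%, against 10.4% of all genes), 4 higher and 12 lower. Of these, 7 came from the 18 other genes of collagen modification (38.9%), 1 higher and 6 lower, with a median log2 fold change of -0.39. In this list P3h2, another prolyl 3-hydroxylase, read 2179, 2698, 2426 and 2499 in WT and 1166 and 1184 in KO and fell by 1.06 (SE 0.17, DESeq2 adjusted p 3.1e-08). Adamts14, a procollagen N-proteinase, read 335, 278, 173 and 202 in WT and 103 and 84.8 in KO and fell by 1.39 (SE 0.34, adjusted p 0.00106). The count of 7 was 3 in edgeR and 4 without WT-1, without WT-2 or without KO-2.

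The other 5 lists held few genes that passed. They were 1 of 30 folding enzymes, 3 of 44 genes of translocation and export, 1 of 14 sensors and factors, 3 of 32 Atf4 and CHOP targets and 1 of 25 further genes of ER-associated degradation. Ern1, which encodes Ire1, had 836 to 1112 normalised counts in WT and 1212 and 1018 in KO (log2 fold change 0.20, SE 0.20, DESeq2 adjusted p 0.623). Eif2ak3, which encodes Perk, had 466 to 714 in WT and 682 and 488 in KO (-0.05, SE 0.24, adjusted p 0.939). Neither sensor passed. Of the 3 Atf4 and CHOP targets, 1 was higher and 2 were lower. Asns, asparagine synthetase, passed upward. It read between 23.0 and 59.3 in WT and 81.2 and 146 in KO (1.49, SE 0.49, adjusted p 0.0297). This call was lost in 7 of 16 alternatives, among them edgeR (adjusted p 0.0859), the fits without WT-1 (0.102), without WT-3 (0.0732) and without KO-2 (0.442, change 1.02). Nupr1, a stress-induced nuclear protein, fell, with values between 5340.5 and 7875 in WT and of 1929.6 and 2973 in KO (-1.33, SE 0.23, adjusted p 9.48e-07). Man1a, a Golgi mannosidase that trims glycoproteins, rose 2.47-fold (511 to 865 in WT, 1759.6 and 1595 in KO, DESeq2 adjusted p 6.79e-06).

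For comparison, 2 of 10 fibrillar procollagen and elastin genes, which are the cargo, passed, 1 higher and 1 lower, and 1 of 14 cytosolic heat shock genes. Of 17 circadian genes 13 passed (76.5%), 3 higher and 10 lower, and of 19 immediate early genes 4 passed, all lower. Their part in the values of the 37 genes was not tested.

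**Figure D5:**
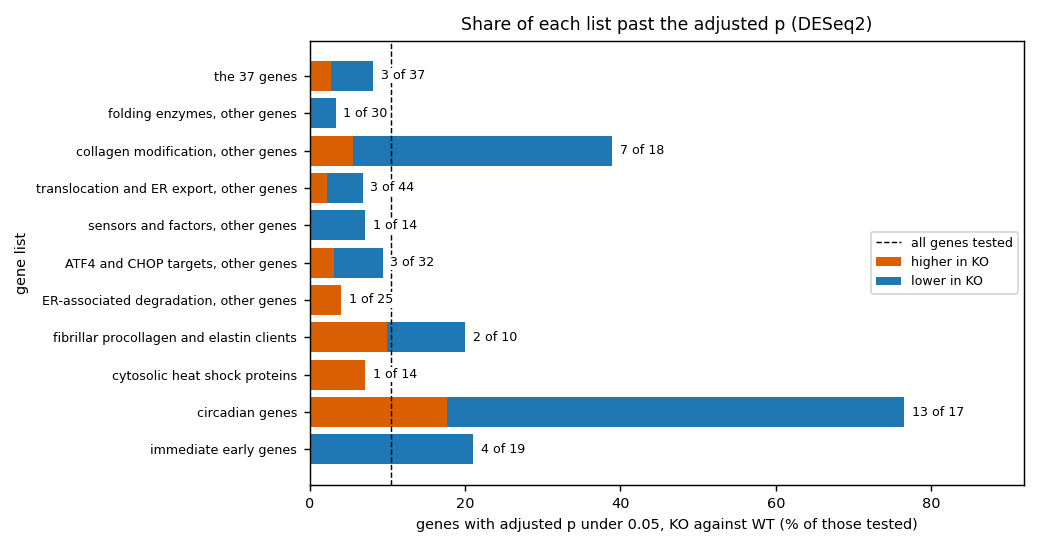
Share of genes with a DESeq2 adjusted p under 0.05 in the 37 genes and in 10 further lists, as a percentage of those tested in each list, with the number beside each bar. The dashed line marks all genes tested (10.4%); the 37 genes (8.11%) lie below it, the other genes of collagen modification (38.9%) above it, and the circadian list (76.5%) reaches farthest.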

How the data were processed

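RNA from the thoracic aorta of 4 WT and 2 KO mice was sequenced. The authors trimmed reads with Trim Galore, mapped them to GRCm38 (mm10) with HISAT2 and quantified genes with StringTie on GENCODE M15 models. What was deposited is a table of estimated counts, 1 whole number per gene and library, not scaled for depth. How coverage was turned into counts, and whether strand was used, is not given in the sources used here, so overlapping genes can share reads. Table columns carry codes, and their match to the samples was inferred from the codes: those numbered 1 to 4 were taken as WT, the others as KO.

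Counts were compared in DESeq2 1.42.0 (R 4.3.3; Wald test on group alone with default settings; Benjamini-Hochberg adjustment over all genes). The study's call is an adjusted p under 0.05 with a fold above 2. Normalised counts are counts divided by size factors, and log2 values of single libraries had a pseudocount of 0.5 added. Levels per length used merged exon lengths of GENCODE M21 on GRCm38, which matched 52489 of 52636 genes. The scripts were tested on simulated counts. The 16 alternatives were edgeR 4.0.16 (quasi-likelihood, with filterByExpr or unfiltered), 3 other scalings, a mean count of at least 10, a test against a 2-fold change, the replicate number as a block, each library left out, and trends on GC content and exon length. The members and gene lists were chosen with earlier results of these data known. All members are described, with values per library for those that passed and for Hspa5, Serpinh1, P4hb, Xbp1, Atf4, Atf6 and Ddit3. From other lists, called genes with a mean of at least 10 (at most 4 a list), Ern1 and Eif2ak3 are named. Other per-library values, and those in the closing section, were chosen after values were seen.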

Additional observations from a re-analysis of the deposited data

Results flagged for a closer look

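Of the 37 genes, 1 had a WT library set apart from the other 3 by Dixon's test at the 95% level, where chance gives about 1 in 20, or 1.85 of 37. The normalised count of Sel1l was 4115 in WT-1 and 1669 to 1832 in WT-2, WT-3 and WT-4, so that 93.3% of the range lay in that gap. The library labelled KO-1 was similar to WT-1, at 4324.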

How the results depend on the processing

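The tests rest on 2 libraries labelled KO, and P4ha3 on counts as low as 7. The median log2 fold change of the 37 genes (0.07) ran from -0.08 to 0.20 with libraries left out and was -0.01 with the replicate block or with GC content taken out, so its sign is not settled. The count without overlap (15) was 15 with TMM factors and 16 with total counts, and ran from 15 to 19 with single WT libraries left out. Leaving out a WT library narrows the WT range and so tends to raise this count. Libraries labelled KO were not left out for it. The number of the 37 genes that passed was 3, and it was 2 in edgeR, 1 in unfiltered edgeR, 0 when tested against 2-fold, 6 on genes with a mean of at least 10 counts, 7 with exon length taken out, and 7 when scaled to total counts without mitochondrial genes, which itself raised the median of all genes to 0.12. With single libraries left out it ran from 3 to 9 (5 without WT-4), where fits of 1 library labelled KO take their spread from WT. Genes called among them numbered 0 when tested against 2-fold, and 1 to 2 with libraries left out. Among all genes, 1775 passed and 962 were called. These counts were 996 and 633 in edgeR, 931 passing in unfiltered edgeR, 114 and 114 when tested against 2-fold, and ran from 1113 to 2439 and from 636 to 1284 with libraries left out. The 16 further pathway genes that passed were 7 in edgeR with and without a filter, 0 when tested against 2-fold, and 10 to 29 with libraries left out. For collagen modification these were 3, 0 and 4 to 7 in place of 7, and 4 with total counts, mitochondrial genes included or not. The labels do not say whether replicate numbers pair the samples. Correlations of deviations were -0.09 and 0.01 for the 2 shared numbers. With only 2 libraries labelled KO, their deviations mirror each other, so these correlations cannot decide it. With the replicate number as a block, 628 genes passed and 561 were called. Among those that passed were 1 of the 37 (P4ha3), 7 further pathway genes and 2 of collagen modification. In that fit WT-3 and WT-4 had no partner labelled KO, so only WT-1 and WT-2 were compared with KO-1 and KO-2. The cause of these shifts was not tested. Signs turned only for genes near 0 or unlike in the libraries labelled KO. With GC content taken out Canx was -0.11, Serpinh1 was 0.21, Mia3 was -0.10, Dnajc3 was -0.0256 and Eif2ak3 was 0.0001. With exon length taken out Serpinh1 was 0.0525. Scaled to total counts Serpinh1 was 0.0396, Edem1 was 0.007 and Eif2ak3 was 0.0019. Scaled without mitochondrial genes Serpinh1 was 0.0869, Sec23a was 0.0157, Sec31a was 0.0267, Edem1 was 0.0549 and Eif2ak3 was 0.0519. With the replicate block Creld2 was -0.0638, Sel1l was -0.0722 and Eif2ak3 was 0.12. With libraries left out, log2 fold changes ran from -0.25 to 0.44 for Pdia6, -0.40 to 0.66 for P4ha1, -0.47 to 0.20 for P4ha2, -0.31 to 0.25 for Serpinh1, -0.38 to 0.12 for Crtap, -0.30 to 0.11 for Sec23a, -0.0121 to 0.0745 for Mia3, -0.64 to 0.56 for Creld2, -0.0034 to 1.23 for Sdf2l1, -0.0674 to 0.34 for Dnajc3, -0.0826 to 0.22 for Xbp1, -0.37 to 0.23 for Edem1, -0.57 to 0.90 for Sel1l and -0.31 to 0.18 for Eif2ak3. Of 592 values for the 37 genes under alternatives, 528 kept direction and side of the threshold, 11 no longer passed, 24 newly passed and 29 changed sign.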
